A study of Mus musculus with 6 samples.

Results

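Mid1 (midline 1) and 5 relatives, Mid2, Trim9, Trim36, Trim46 and Trim67, were followed in the brains of mice without Bahd1. The genes were taken from the count table by their symbols, and all 6 were present among its 53801 genes and among the 23975 genes that reached 10 counts when all mice were summed. Mid1 was chosen by its measured counts, because its level was lower in Bahd1-KO than in Bahd1-WT brains in these same data, so its difference between the genotypes is given below as a description without a test. The other 5 genes were chosen as members of its subfamily. RNA-seq measured 1 brain hemisphere from each of 3 Bahd1-WT mice (Bahd1+/+) and 3 Bahd1-KO mice (Bahd1-/-), all of strain C57BL/6 and about 70 weeks old. The knockout is constitutive, with both copies of Bahd1 inactivated in every cell, and no mouse received a further treatment. The paper describes the animals as males, and in all 6 libraries the Y-linked gene Ddx3y lay between 52.8 and 135 CPM (counts scaled to library size) while Xist, the RNA of the inactive X chromosome, lay between 0.0136 and 0.130 CPM.

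TRIM proteins are ubiquitin ligases built from a RING domain, B-boxes and a coiled coil. The class I subfamily carries in addition a COS domain, which binds microtubules, followed by a fibronectin type III and a SPRY domain. MID1 sits on microtubules and, through the α4 protein encoded by Igbp1, directs the catalytic subunit of protein phosphatase PP2A to degradation. Mutations of human MID1 cause X-linked Opitz G/BBB syndrome, a disorder of midline structures. MID2 is its closest relative and also binds α4. TRIM9 and TRIM67 are paralogs made by neurons that act in axon branching and in the response to the guidance cue netrin. TRIM46 organises parallel microtubules at the start of the axon, and TRIM36 is best known for its roles in microtubules and in the acrosome reaction of sperm.

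In GRCm38, Mid1 occupies chromosome X from 169685199 to 170005736 and Mid2 the same chromosome from 140664599 to 140767715, both on the plus strand. Trim67 is on chromosome 8 from 124793092 to 124834713 on the plus strand. Trim9 (chromosome 12, 70244533 to 70347614) and Trim46 (chromosome 3, 89234177 to 89246309) are on the minus strand. In C57BL/6 mice Mid1 lies across the boundary of the pseudoautosomal region, the stretch shared by the X and Y chromosomes, so reads from its 3′ exons can match the Y chromosome as well. The annotation has an unprocessed pseudogene, Mid1-ps1, on the Y chromosome from 90753057 to 90763485, and a non-coding gene, G530011O06Rik, inside Mid1 on the opposite strand. The counts of Mid1 are therefore uncertain for the part of the gene that has this copy.

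The RefSeq table of GRCm38.p6 lists 3 start sites for Mid1, which the counts, made per gene, do not separate. The 250 bases before the start at the outer end of the gene and before the innermost start are shown with the window of Mid2, because Mid1 and its closest relative differ here in base composition. These RefSeq starts can differ from the GENCODE positions given above, and the windows of the inner start of Mid1 and of Mid2 lie within the GENCODE span of the gene but overlap no exon. Sequences are in the direction of transcription, with each CpG (the letters CG) in capitals.
Mid1 outer start, chrX:169684949-169685198, plus strand: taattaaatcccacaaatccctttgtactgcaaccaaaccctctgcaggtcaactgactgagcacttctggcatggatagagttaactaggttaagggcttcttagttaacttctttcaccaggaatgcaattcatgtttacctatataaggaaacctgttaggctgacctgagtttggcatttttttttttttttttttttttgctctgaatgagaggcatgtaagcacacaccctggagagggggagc
Mid1 inner start, chrX:169879369-169879618, plus strand: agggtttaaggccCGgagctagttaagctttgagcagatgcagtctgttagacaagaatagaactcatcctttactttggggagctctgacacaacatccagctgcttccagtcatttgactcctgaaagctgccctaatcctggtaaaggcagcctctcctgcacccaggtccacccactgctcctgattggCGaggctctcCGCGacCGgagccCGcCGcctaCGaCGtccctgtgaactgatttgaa
Mid2 start, chrX:140664706-140664955, plus strand: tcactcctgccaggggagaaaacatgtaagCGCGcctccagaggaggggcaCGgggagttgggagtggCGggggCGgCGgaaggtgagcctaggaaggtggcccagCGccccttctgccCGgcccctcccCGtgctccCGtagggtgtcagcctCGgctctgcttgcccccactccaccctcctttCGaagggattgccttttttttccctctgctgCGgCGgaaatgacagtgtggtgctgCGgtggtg
The outer window of Mid1 held 0 CpG and 40.8% G and C. The inner window of Mid1 held 9 CpG and 54.0% G and C, and the third window, between them, held 5. The window of Mid2 held 15 CpG and 65.6% G and C. Of all 32851 windows of this kind in the table, 40.3% held at least 9 CpG and 27.3% at least 15. The windows of Trim9 and Trim67 held 16 and 21 CpG, and the 3 windows of Trim46 between 9 and 11, of which 2 overlap an exon. The window of Trim36 was not analysed here. The base composition of these windows is a description and was not related to the change in expression.

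The targeted gene matched every label, since Bahd1 counts were 1383, 844 and 1099 in the Bahd1-WT libraries and 0, 14 and 1 in the Bahd1-KO libraries. Depth lay between 64788806 and 92895774 counts in Bahd1-WT and between 42297150 and 93557948 counts in Bahd1-KO libraries. Genes were compared with edgeR's quasi-likelihood test on counts scaled by the TMM method, with adjustment of p-values by Benjamini-Hochberg over all 23975 genes. The log2 fold change of Bahd1-KO over Bahd1-WT followed the GC content of genes, with a Spearman correlation of 0.858 across 13810 expressed genes, which share the 6 libraries and are not independent. Differences between the genotypes are therefore also given with a GC and length offset, which removes from each library the smooth dependence of expression on the GC content and exon length of genes. With this offset the correlation was -0.00632, which is near 0 by construction, since the offset was fitted to GC content in these same libraries. In the adult brain as a whole, fewer cells of a type and less RNA per cell cannot be told apart.

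Mid1 had the lowest CPM of the members, though its counts are uncertain for the part that has the Y copy. Its level in Bahd1-KO brains was 0.263 times that in Bahd1-WT brains. Its counts were 322, 220 and 227 for replicates 1, 2 and 3 of Bahd1-WT, against 31, 87 and 61 for those of Bahd1-KO. The 95% Poisson intervals of these counts, which cover counting error only, were 192 to 251 for the smallest count in Bahd1-WT and 21.1 to 44.0 for the smallest in Bahd1-KO. Scaled to library size, these were 3.52, 3.56 and 3.10 CPM in the Bahd1-WT mice and 0.713, 0.914 and 1.05 CPM in the Bahd1-KO mice. The Bahd1-WT mice lay close together and every Bahd1-KO mouse was below all of them.

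**Figure D1:**
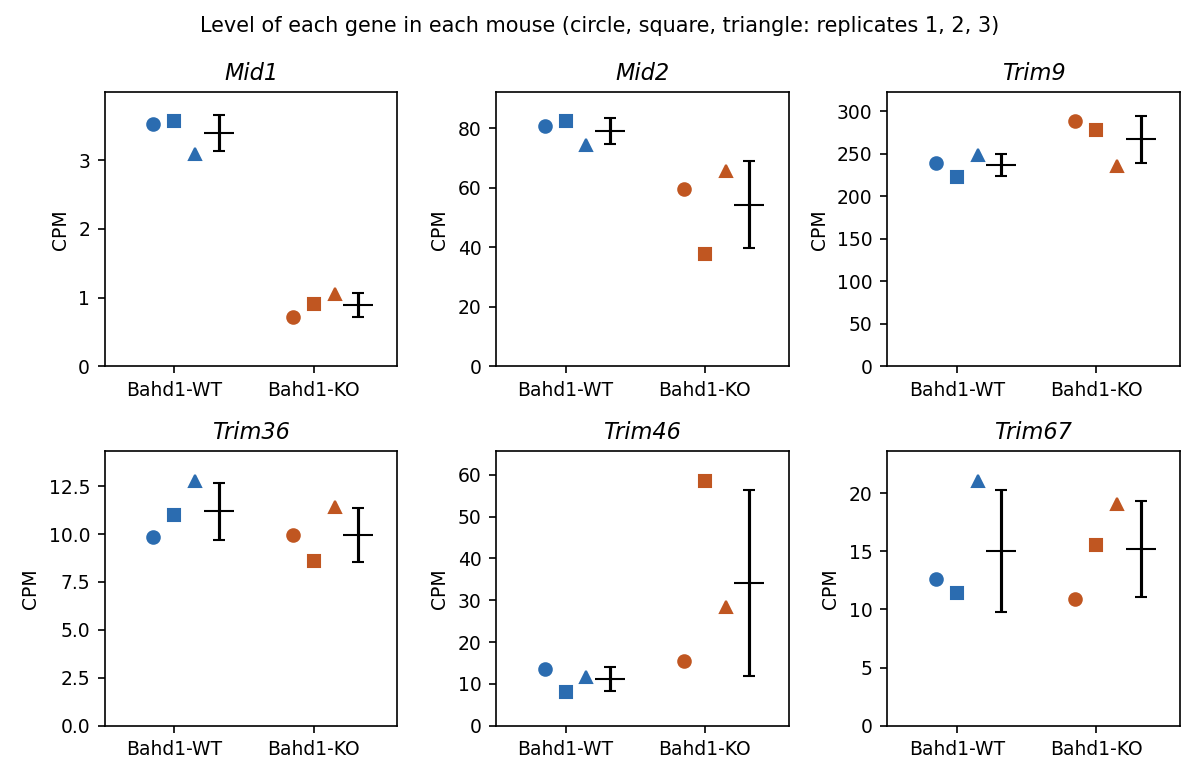
Normalized level (CPM, linear axis from 0) of each of the 6 genes in each mouse, with the symbols marking replicates and the bars the mean and SD (n = 3). For Mid1 the Bahd1-KO mice sit between 0.713 and 1.05 CPM, all below the Bahd1-WT mice, while Trim9, Trim36 and Trim67 overlap between the genotypes and Trim46 reaches 58.6 CPM in Bahd1-KO replicate 2.

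The mean of Mid1 was 3.39 ± 0.26 CPM (SD, n = 3) in Bahd1-WT and 0.893 ± 0.17 CPM (SD, n = 3) in Bahd1-KO, or -1.92 on the log2 scale (standard error 0.24). With the GC and length offset the log2 fold change was -2.63 (standard error 0.23), and the offset-corrected levels were 3.94, 5.12 and 3.90 CPM in Bahd1-WT and 0.759, 0.547 and 0.814 CPM in Bahd1-KO. The transcript of Mid1 has a GC content of 54.9%, which puts it in decile 8 of expressed genes, where the median log2 fold change was 0.56. Of the 1381 genes of that decile, 1 had a lower log2 fold change than Mid1, the lung surfactant gene Sftpc, chosen for mention after its value was seen. This place is a description, since Mid1 was chosen by this difference.

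Mid2 had a lower level in every Bahd1-KO mouse as well, but by far less. It had 80.9, 82.3 and 74.2 CPM in Bahd1-WT replicates 1, 2 and 3 and 59.6, 37.8 and 65.5 CPM in the Bahd1-KO replicates. The lowest value was that of Bahd1-KO replicate 2, and the genotypes did not overlap. Over all genes tested, 19.3% lay lower in Bahd1-KO without overlap, and 39.8% lay apart in either direction. The log2 fold change of Mid2 was -0.54 (standard error 0.21, adjusted p = 0.126 by edgeR). With the offset it was -0.12 (standard error 0.11, adjusted p = 0.587 by edgeR) and the genotypes overlapped. The GC content of Mid2 is 42.3%, in decile 2, where the median log2 fold change was -0.43.

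The level of Mid1 relative to Mid2 was compared within each library, per length of exon sequence, which cancels the scaling of the library. For every 100 FPKM (CPM per kilobase of exons) of Mid2, the Bahd1-WT mice had 5.25, 5.22 and 5.03 FPKM of Mid1. The Bahd1-KO mice had 1.44, 2.91 and 1.94. After the offset these ratios were between 6.74 and 9.15 in Bahd1-WT and between 1.19 and 1.55 in Bahd1-KO. The ratio was lower in each Bahd1-KO mouse on either scale, and since Mid1 entered the study of these genes through its change, no test is given.

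Trim9, which regulates actin and exocytosis in growing axons, was the most abundant member. Its levels were 239, 223 and 248 CPM in Bahd1-WT and 288, 278 and 235 CPM in Bahd1-KO replicates 1, 2 and 3, so the genotypes overlapped. The log2 fold change was 0.17 (standard error 0.15, adjusted p = 0.432 by edgeR). With the offset its levels were 203, 183 and 215 CPM in Bahd1-WT and 301, 414 and 250.04 CPM in Bahd1-KO, or 0.68 on the log2 scale (standard error 0.17, adjusted p = 0.0854 by edgeR). The genotypes then no longer overlapped, with Trim9 higher in Bahd1-KO. After the offset 26.2% of all genes lay apart in either direction, and 14.6% lay lower in Bahd1-KO. DESeq2, with its prior and the offset, gave an adjusted p of 0.00427 for Trim9, against 0.479 without the offset.

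Trim67, the paralog of Trim9, had 12.6, 11.4 and 21.1 CPM in Bahd1-WT replicates 1, 2 and 3 and 10.9, 15.5 and 19.1 CPM in the Bahd1-KO replicates. Replicate 3 was the highest in both genotypes, and the ranges overlapped. The log2 fold change was 0.01 (standard error 0.30, adjusted p = 0.981 by edgeR). With the offset it was -0.87 (standard error 0.26, adjusted p = 0.112 by edgeR), with 14.5, 18.1 and 28.7 CPM in Bahd1-WT and 12.01, 8.02 and 13.6 CPM in Bahd1-KO. DESeq2 with the prior and the offset gave an adjusted p of 0.0138 for Trim67, against 0.947 without the offset. For every 100 FPKM of Trim9 there were between 8.33 and 13.8 FPKM of Trim67 in Bahd1-WT and between 6.14 and 13.2 in Bahd1-KO. After the offset these ratios were between 11.6 and 21.6 in Bahd1-WT and between 3.14 and 8.84 in Bahd1-KO. They overlapped between the genotypes before the offset and not after it. Of all genes, 14.6% lay lower in Bahd1-KO without overlap after the offset, and no such share was computed for ratios. The GC content is 56.4% for Trim67 and 42.6% for Trim9.

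The mean of Trim46 in Bahd1-KO was 3.07 times that in Bahd1-WT without the offset, the highest such ratio of the 6 genes, with a Bahd1-KO SD of 22.2 CPM around a mean of 34.1 CPM. The 3 Bahd1-WT mice had 13.6, 8.0 and 11.7 CPM, and Bahd1-KO replicates 1, 2 and 3 had 15.4, 58.6 and 28.4 CPM. All Bahd1-KO values lay above all Bahd1-WT values, as they did for 20.6% of all genes tested. The lowest of them, in replicate 1, exceeded the highest Bahd1-WT value by less than the SD within Bahd1-WT, 2.86 CPM. The log2 fold change was 1.62 (standard error 0.44, adjusted p = 0.0653 by edgeR), and without Bahd1-KO replicate 2 it was 0.98 (adjusted p = 0.0835 by edgeR). Without Bahd1-KO replicate 1 it was 2.0 (adjusted p = 0.00545 by edgeR), which was past the threshold, as were 30% of all genes in that fit. DESeq2 with the prior called the gene, with an adjusted p of 0.00195, and called 14.3% of all genes tested higher and 2.89% lower in Bahd1-KO. With the offset the log2 fold change was 0.26 (standard error 0.15, adjusted p = 0.362 by edgeR), and the genotypes overlapped. The GC content of Trim46 is 59.0%, in decile 10, where the median log2 fold change was 1.43.

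Trim36, on chromosome 18 from 46165300 to 46212607 on the minus strand, had 9.83, 11 and 12.8 CPM in Bahd1-WT and 9.93, 8.59 and 11.4 CPM in Bahd1-KO replicates 1, 2 and 3, and the genotypes overlapped. The log2 fold change was -0.17 (standard error 0.20, adjusted p = 0.584 by edgeR) and 0.21 with the offset (adjusted p = 0.488 by edgeR). Its GC content is 43.6%.

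Of the 5 relatives of Mid1, 0 had an adjusted p-value under 0.05 in edgeR's test, as against 0.00834% of all genes tested. At an unadjusted p-value under 0.05 there were 2 relatives, Mid2 lower and Trim46 higher, against 31.8% of all genes. DESeq2 called 1 relative, Trim46, with or without the prior, against 17.2% of all genes. With the offset edgeR again called 0 of the 5, against 0.0167% of all genes. At an unadjusted p-value under 0.05 the offset left 2 relatives, Trim9 higher and Trim67 lower, against 21.4% of all genes (9.88% higher and 11.5% lower). A fit that blocked on replicate numbers gave 0 of the 5 at an adjusted p-value under 0.05 in edgeR, against 0.0292% of all genes. DESeq2 with the prior and the offset called these 2, against 9.02% of all genes. The calls without the offset and with it thus named different relatives.

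**Figure D2:**
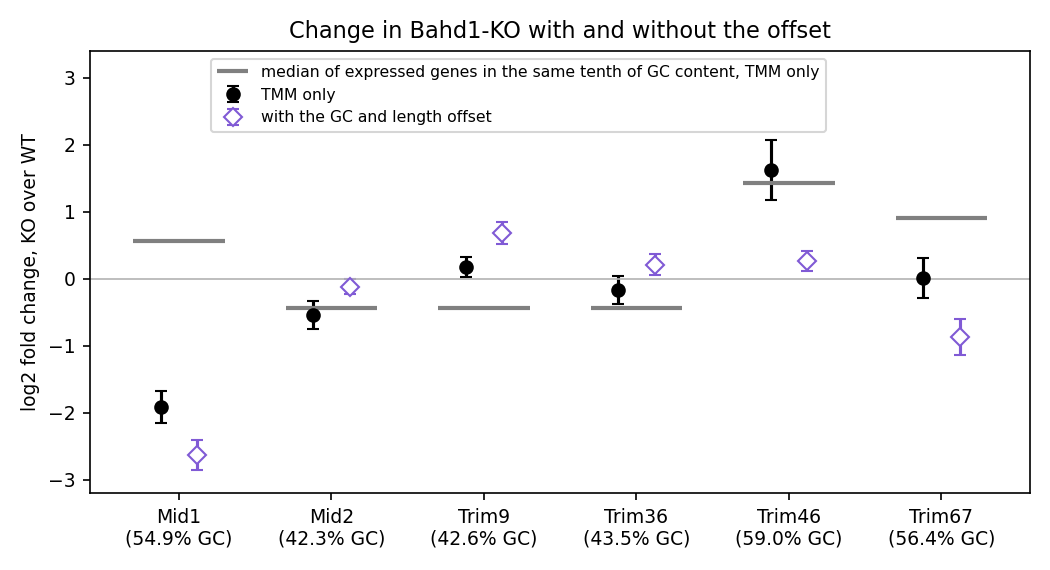
Log2 fold change of Bahd1-KO over Bahd1-WT for each gene with its standard error, without the offset (filled circles) and with it (open diamonds), and the median of expressed genes in the same decile of GC content (grey bars). Mid2 and Trim46 lie near their grey bar, while Mid1, at -1.92, lies far below its bar at 0.56, Trim67 below and Trim9 above.

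**Figure D3:**
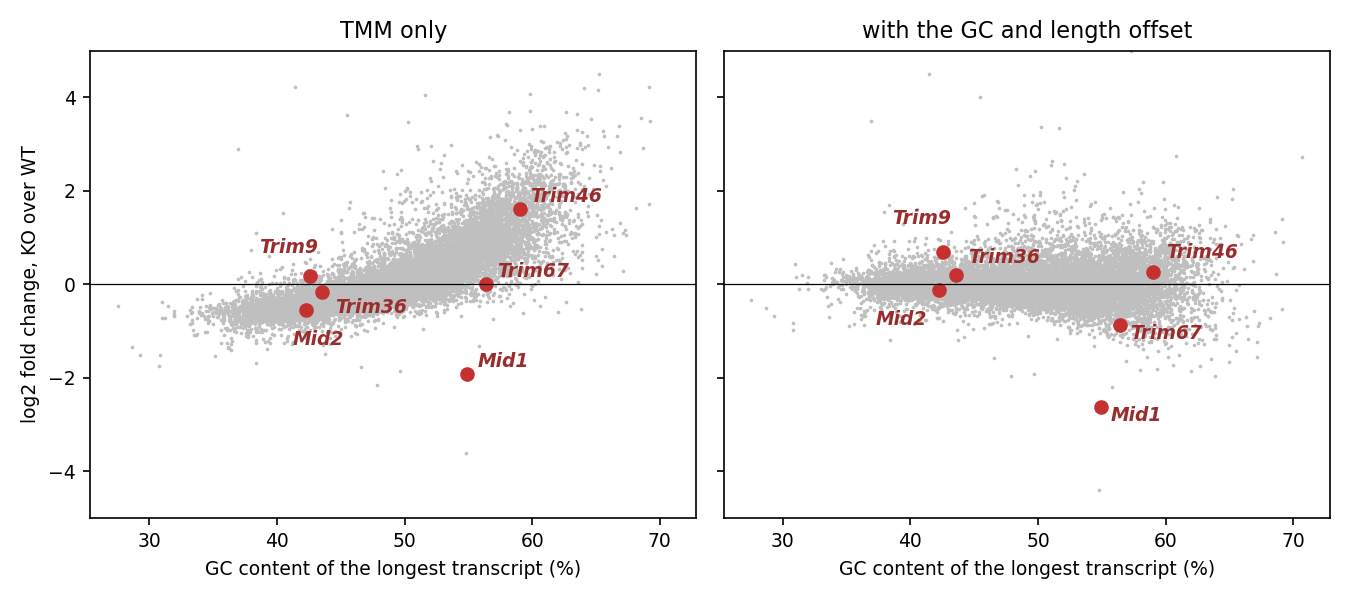
Log2 fold change against GC content (%) of the longest transcript for 13810 expressed genes (grey points) and the 6 members (red), without the offset (left) and with it (right). The rise of the grey points with GC content is absent on the right, by construction of the offset. Those outside the axis included, 4 genes on the left and 3 on the right lie below Mid1. Between -5 and 5 the axis leaves out 5 genes on the left and 2 on the right.

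Per length, the order of levels in Bahd1-WT brains was Trim9, Mid2, Trim46, Trim36, Trim67 and Mid1. Trim9 had 16.7 ± 0.90 FPKM and Mid2 9.76 ± 0.53 FPKM (SD, n = 3), and these ranges were apart. Trim46 had 2.93 ± 0.75 FPKM, Trim36 2.27 ± 0.30 FPKM and Trim67 1.72 ± 0.60 FPKM, and neighbours among these overlapped in range. Mid1 had 0.505 ± 0.038 FPKM, below every value of Trim67. Its length included the 3′ exons that can match the Y chromosome, where its counts are uncertain. Its place in this order, its share of the sum and its ratio to Mid2 are therefore uncertain in size.

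In Bahd1-KO brains the order was Trim9, Trim46, Mid2, Trim36, Trim67 and Mid1. Trim46 and Mid2 overlapped there, with 9.0 ± 5.8 and 6.69 ± 1.8 FPKM (SD, n = 3), and only 1 of the 3 mice, replicate 2, had more Trim46 than Mid2. Trim9 had 18.8 ± 2.0 FPKM, Trim36 2.02 ± 0.29 FPKM, Trim67 1.74 ± 0.47 FPKM and Mid1 0.133 ± 0.026 FPKM (SD, n = 3). As a share of the summed FPKM of the 6 genes, Mid1 made up 1.5% in Bahd1-WT and 0.348% in Bahd1-KO, Mid2 28.9 and 17.9%, Trim46 8.61 and 22.5%, and Trim9 49.2 and 49.4%. The sum itself lay between 32 and 35.2 FPKM in Bahd1-WT and was 35.0, 43.3 and 36.8 FPKM in Bahd1-KO replicates 1, 2 and 3. With offset-corrected levels Mid2 stood above Trim46 in Bahd1-KO too, with 7.67 ± 1.0 and 5.21 ± 0.97 FPKM (SD, n = 3), and Trim67 stood above Trim36 in Bahd1-WT only. The shares in Bahd1-WT and Bahd1-KO were then 13.7 and 13.3% for Trim46, 26.3 and 20.0% for Mid2, 44.4 and 57.2% for Trim9 and 2.04 and 0.276% for Mid1.

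**Figure D4:**
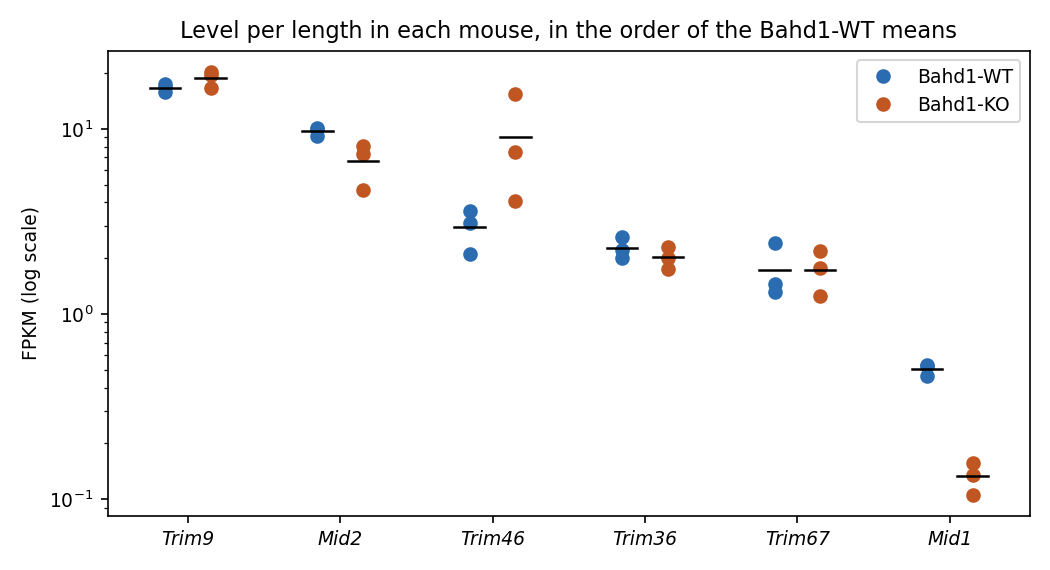
Level per length (FPKM, log axis) of each gene in each mouse, ordered by the Bahd1-WT mean, with black bars for the means. Trim9 is highest in both genotypes at 16.7 and 18.8 FPKM, Mid1 is lowest, and Trim46 and Mid2 overlap in Bahd1-KO.

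Genes beside Mid1 on chromosome X had smaller log2 fold changes than Mid1. Of 18 listed genes, all on the side of Mid1 away from the chromosome end, 17 were tested, with starts at -5.248 to -0.435 Mb from that of Mid1. All 17 had a negative log2 fold change, from -1.12 for Tlr8 to -0.17 for Asb11, with a median of -0.40 against -0.06 over all genes tested. In edgeR's test 0 of the 17 had an adjusted p-value under 0.05, against 0.00834% of all genes, and 4 were lower at an unadjusted p-value under 0.05, against 12% of all genes lower at that level. DESeq2 called 0 of them, with or without the prior, against 17.2% of all genes (2.89% lower with the prior). With the offset their log2 fold changes ran from -0.62 to 0.19 with a median of -0.00, 8 above 0 and 9 below, and 0 had an unadjusted p-value under 0.05. Hccs, which encodes the holocytochrome c synthase of mitochondria and starts closest to Mid1, differed by -0.33 on the log2 scale (standard error 0.23) and 0.19 with the offset. Tlr7, a sensor of single-stranded RNA and the gene of this list with the largest difference among those at 1 CPM or more, had 10.6 ± 3.6 CPM in Bahd1-WT and 5.50 ± 2.4 CPM in Bahd1-KO (SD, n = 3; adjusted p = 0.137 by edgeR, and 0.333 with the offset).

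**Figure D5:**
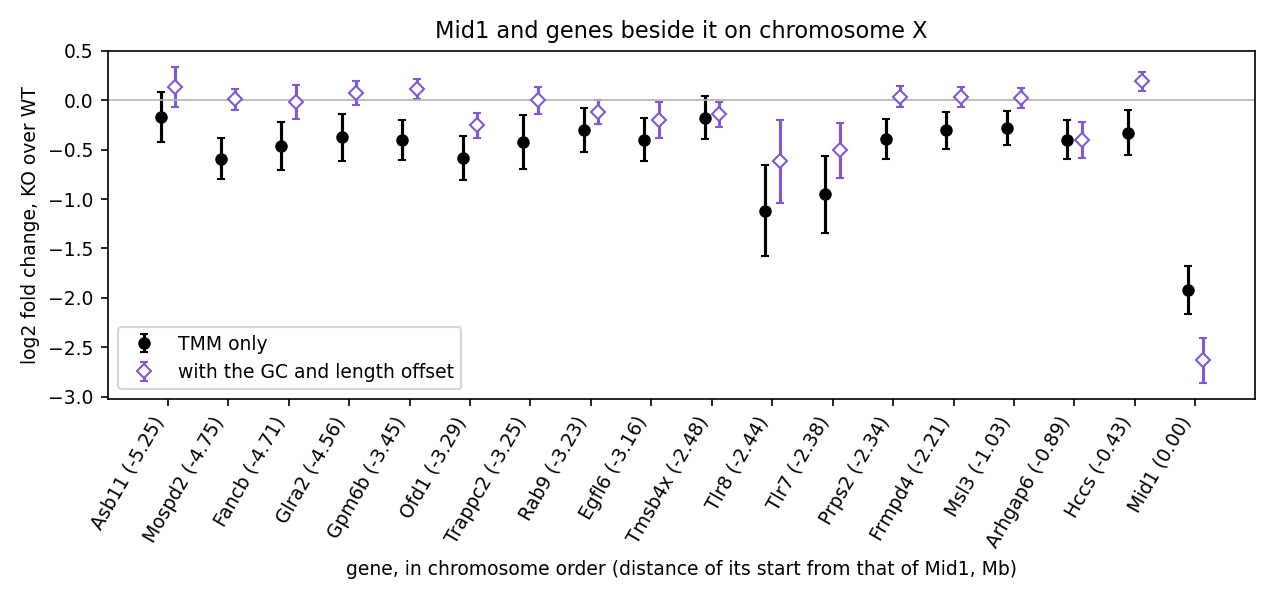
Log2 fold change with its standard error of Mid1 and 17 genes before it on chromosome X, in chromosome order, without the offset (filled circles) and with it (open diamonds), labelled with the distance of each start from that of Mid1 in Mb. Mid1, at -1.92 and -2.63, lies below all the others, the lowest of which are Tlr8 at -1.12 and Tlr7 at -0.95.

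Pseudoautosomal genes gave few counts. The table holds 5 of the 7 listed besides Mid1, and 2 could be tested, of which 0 had an adjusted p-value under 0.05 by edgeR. DESeq2 gave no adjusted p-value for Mid1-ps1 and did not call the other, G530011O06Rik. In edgeR's test 1, Mid1-ps1, was higher at an unadjusted p-value under 0.05, against 19.9% of all genes. With the offset Mid1-ps1 overlapped between the genotypes (adjusted p = 0.388 by edgeR). The Y-linked copy Mid1-ps1 was counted 1, 1 and 0 times in Bahd1-WT and 2, 5 and 5 times in Bahd1-KO, at or near the floor of 3 counts. Reads that match both copies were not examined, and their part in the counts of Mid1 was not tested. G530011O06Rik, on the opposite strand inside Mid1, was counted 54, 60 and 100 times in Bahd1-WT, and 33, 48 and 26 times in Bahd1-KO (log2 fold change -0.78, standard error 0.37, adjusted p = 0.177 by edgeR), and its ranges overlapped between the genotypes in CPM.

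The partners of MID1 in its pathway were measured next. Of 10 genes, among them Igbp1, the catalytic and scaffold subunits of PP2A and the ubiquitin-conjugating enzymes of the Ube2d family, 0 had an adjusted p-value under 0.05 in edgeR's test with or without the offset (all genes 0.0167 and 0.00834%), 2 were higher and 1 lower at an unadjusted p-value under 0.05, against 19.9 and 12% of all genes, and DESeq2 called 2 higher, against 14.3%. Igbp1, which encodes α4, had 62.7, 59.97 and 65.03 CPM in Bahd1-WT and 62.9, 59.0 and 53.2 CPM in Bahd1-KO replicates 1, 2 and 3 (log2 fold change -0.10, standard error 0.15). With the offset the direction turned to 0.40 (standard error 0.15, adjusted p = 0.174 by edgeR) and the genotypes lay apart, higher in Bahd1-KO, while 26.2% of all genes lay apart in either direction after the offset. Ppp2ca, the main catalytic subunit of PP2A and the target that MID1 marks for degradation, differed by -0.29 on the log2 scale (standard error 0.20, adjusted p = 0.327 by edgeR) and 0.02 with the offset. Mid1ip1, whose product binds MID1 and stabilises microtubules, had the largest positive value, with 32.5 ± 3.0 CPM in Bahd1-WT and 74.2 ± 36 CPM in Bahd1-KO (SD, n = 3; adjusted p = 0.0644 by edgeR), and a log2 fold change of 1.19, or 0.18 with the offset. Ube2d3 was at the other end, with -0.67 and 0.04.

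Of 13 genes of mTORC1, the growth-control kinase complex that PP2A and MID1 act upon, 0 passed in edgeR's test, 7 were higher and 1 lower at an unadjusted p-value under 0.05 (all genes 19.9 and 12%), and DESeq2 called 6 higher (all genes 14.3%). The median log2 fold change was 0.56 and, with the offset, 0.06. Akt1s1, an inhibitor of the complex, had the largest positive value at 1.92 (standard error 0.49) and 0.30 with the offset. Rps6kb1, the S6 kinase downstream of the complex, had the most negative at -0.61 and -0.05. Of 10 genes of the Hedgehog pathway, in which MID1 acts at the midline, 0 passed, 5 were higher and 0 lower at an unadjusted p-value under 0.05 (all genes 19.9 and 12%), and DESeq2 called 3 higher (all genes 14.3%). Gli1, a transcription factor and target of the pathway, had 1.28 ± 0.34 CPM in Bahd1-WT and 3.57 ± 1.9 CPM in Bahd1-KO (SD, n = 3), a log2 fold change of 1.48, or 0.17 with the offset. Hhip, a decoy for Hedgehog ligands, had -0.34 and 0.16. The median of the pathway was 0.65 and -0.02 with the offset.

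Genes around TRIM9 and TRIM67 comprised netrins, their receptors and proteins these ligases bind. Of 15 tested, 0 passed in edgeR's test, 6 were higher and 2 lower at an unadjusted p-value under 0.05 (all genes 19.9 and 12%), and DESeq2 called 5 higher (all genes 14.3%). Unc5a, a netrin receptor of the repulsive kind, had the largest log2 fold change of this list, with 8.92, 4.03 and 4.16 CPM in Bahd1-WT and 13.5, 98.2 and 35.8 CPM in Bahd1-KO replicates 1, 2 and 3. Its log2 fold change was 3.11 (standard error 0.67, adjusted p = 0.0634 by edgeR) and 1.27 with the offset (adjusted p = 0.0790 by edgeR). Dcc, the attractive netrin receptor that TRIM9 binds, differed by -0.21 on the log2 scale (standard error 0.31) and by 0.18 with the offset, and Vasp, an actin regulator that TRIM9 ubiquitinates, had 0.90, or -0.25 with the offset. Unc5d had the most negative value, -0.52, and -0.20 with the offset.

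Of 15 genes of the axon initial segment and its microtubules, where TRIM46 resides, 0 passed in edgeR's test, 3 were higher and 3 lower at an unadjusted p-value under 0.05 (all genes 19.9 and 12%), and DESeq2 called 3 higher (all genes 14.3%). Ank3, the ankyrin that anchors this segment, differed by -0.10 on the log2 scale (standard error 0.17). With the offset it differed by 0.15 (adjusted p = 0.397 by edgeR), with every Bahd1-KO mouse above every Bahd1-WT mouse (26.2% of all genes lay apart in either direction after the offset). Sptbn4, the spectrin that joins it, had 21.5, 14.1 and 15.6 CPM in Bahd1-WT and 26.6, 146 and 53.6 CPM in Bahd1-KO replicates 1, 2 and 3 (log2 fold change 2.15, adjusted p = 0.0634 by edgeR, and 0.25 with the offset). Map2, a dendritic microtubule protein, had the most negative value, -0.56, and -0.38 with the offset. The median of the 15 genes was -0.10, or -0.03 with the offset.

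Among other genes with a COS domain, 7 of 8 were tested and 0 passed in edgeR's test, with 2 higher and 1 lower at an unadjusted p-value under 0.05 (all genes 19.9 and 12%), and DESeq2 called 1 higher (all genes 14.3%). Fsd1, a microtubule-associated protein without a RING domain, had 5.46 ± 1.5 CPM in Bahd1-WT and 24.6 ± 16 CPM in Bahd1-KO (SD, n = 3), or 2.17 on the log2 scale (adjusted p = 0.0634 by edgeR) and 0.93 with the offset (adjusted p = 0.0790 by edgeR). Its relative Fsd1l had -0.63 and -0.00. The 55 other tested genes named Trim had a median log2 fold change of -0.07, against -0.06 over all genes, and -0.18 with the offset, against -0.06. Of them 16 lay lower and 11 higher in Bahd1-KO without overlap, against 19.3 and 20.6% of all genes.

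With the offset, edgeR likewise called 0 genes of any list at an adjusted p-value under 0.05, against 0.0167% of all genes. At an unadjusted p-value under 0.05 it left 1 higher and 1 lower of the MID1 partners, 3 and 1 of mTORC1, 1 and 3 of Hedgehog, 5 and 1 of the netrin genes, 0 and 2 of the axon initial segment, and 2 and 0 of the COS genes. Over all genes these shares were 9.88% higher and 11.5% lower. DESeq2 with the prior and the offset called 11 of the 89 list genes (12.4%), against 9.02% of all genes. Among them were Unc5a (adjusted p = 0.000106 by DESeq2) and Fsd1 (adjusted p = 0.000393 by DESeq2).

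The 5 protein-coding genes with the pattern most like that of Mid1, out of 13620 with a mean of at least 1 CPM, were Hdx, Mndal, Cd46, Trim30a and Gm3604. Likeness was the root mean square difference of log2 (CPM + 0.5), centred on the Bahd1-WT mean, over the 6 mice, and lay between 0.36 and 0.42. Their log2 fold changes lay between -1.38 for Mndal and -1.11 for Hdx, an X-linked homeobox gene and the closest of them, and between -0.80 and -0.49 with the offset. Their GC contents were 36.2 to 40.8%, against 54.9% for Mid1. With offset-corrected values 0 of these 5 genes were among the closest.

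Markers of the cell types that the tissue could hold were summed in each mouse, and the sums were not tested. Over all genes, 19.3% lay lower and 20.6% higher in Bahd1-KO without overlap, which is the background of the counts that follow. The summed level of 5 lung epithelium markers was 2.30 to 108 CPM in Bahd1-WT and 0.506 to 1.42 CPM in Bahd1-KO, with 4 of 5 lower in every Bahd1-KO mouse and Sftpa1 and Sftpb at 0 in Bahd1-KO replicate 1. In Bahd1-WT replicates 1, 2 and 3 the lung sum was 108, 26.1 and 2.30 CPM. The part of these markers in the level of Mid1 was not tested. Beside Trim46, the sum of 4 ependymal and choroid plexus markers was 250.1 to 347 CPM in Bahd1-WT and 434, 1068 and 592 CPM in Bahd1-KO replicates 1, 2 and 3, with 2 of 4 higher and 1 of 4, Kl, lower in every Bahd1-KO mouse. The sum of 4 hemoglobin genes was 7.76 to 12.8 CPM against 12.5, 89.1 and 27.3 CPM, with 2 of 4 higher in every Bahd1-KO mouse. The median log2 fold change was 0.97 for the ependymal and choroid plexus markers, or 0.44 with the offset, and 2.34 for the hemoglobin genes, or 1.41 with the offset. For the lung markers it was -6.99, or -8.26 with the offset. The part of these markers in the level of Trim46 was not tested. The sum of 6 neuron markers, which speaks to the labelled tissue, was 6380 to 7356 CPM in Bahd1-WT and 6052 to 7094 CPM in Bahd1-KO, with 1 of 6 lower and 2 of 6 higher in every Bahd1-KO mouse. Microglia markers lay between 138 and 188 CPM in Bahd1-WT and between 175 and 212 CPM in Bahd1-KO. Oligodendrocyte markers summed to 4887 to 5694 CPM in Bahd1-WT and 5104, 7898 and 6768 CPM in Bahd1-KO replicates 1, 2 and 3. Endothelial markers summed to 126 to 139 CPM against 129, 167 and 159 CPM. Astrocyte markers lay between 2341 and 2616 CPM in Bahd1-WT and between 2526 and 3107 CPM in Bahd1-KO, and those of oligodendrocyte precursors between 98.3 and 117 CPM and between 100.3 and 122 CPM. Pituitary markers were highest in Bahd1-WT replicate 1, at 17.3 CPM, and in Bahd1-KO replicate 3, at 41.01 CPM, and lay between 0.0919 and 3.30 CPM in the other mice. The part of these markers in the levels of the 6 genes was not tested.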

How the data were processed

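RNA-seq reads from 1 brain hemisphere of each of 3 Bahd1-WT and 3 Bahd1-KO mice were available as counts per gene. Samples were grouped by their titles. Per the labels and the paper, the authors trimmed reads with Cutadapt 1.11, aligned them to GRCm38 with STAR 2.5.0a (the supplementary methods also name Tophat2) and counted reads on exons by strand with featureCounts 1.4.6-p3. The authors deposited whole counts, without normalization or filter, for 53801 genes, and 0 columns belonged to other samples. The supplementary methods give default parameters for STAR and list for featureCounts no option on reads that match several places. They do not state how reads matching both the X and Y copies of Mid1 were treated. The labels and the paper name the library kit differently, as unstranded and stranded, so reads of Mid1 and of the gene on its opposite strand may not be fully separated.

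The 23975 genes that reached 10 counts in total were tested with edgeR 4.0.16 (TMM, quasi-likelihood, genotype as the only factor) in R 4.3.3, with Benjamini-Hochberg adjustment. The GC and length offset came from natural splines (5 degrees of freedom for GC content, 3 for log2 exon length) fitted in each library to 13251 genes whose mean log2 CPM exceeded 1. GENCODE M21 (GRCm38) gave GC content, positions and lengths for 23940 genes. DESeq2 1.42.0, other normalizations and filters, the replicate block and leaving out each sample were alternatives. FPKM used the union of exons. Depth was 42297150 to 93557948 counts, and the floor of 3 counts equals 0.0315 to 0.0690 CPM. The scripts were tested on simulated counts. P-values judge the difference between the genotypes against the spread among single mice, estimated with information shared across genes.

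The members and gene lists were chosen with earlier results of these data known. Genes named in the text are the 6 members, Bahd1, the genes of each list with the largest positive and negative log2 fold change among those with a mean of at least 1 CPM, the pseudoautosomal genes, and the 5 genes with the pattern most like Mid1. Other list genes were named for their known role after their values were seen. Erdr1, Sts and Ntn3 were listed but not matched by symbol. Protein sequences were not used here.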

Additional observations from a re-analysis of the deposited data

How the results depend on the processing

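Mid1 had a negative log2 fold change under all 18 alternatives. It was -2.06 with upper-quartile factors, -2.63 with the GC and length offset, -2.63 with the offset and the replicate block together, -2.24 in DESeq2 with the prior and the offset, and -2.44 with the offset and without Bahd1-KO replicate 2, an alternative chosen after seeing the data. Leaving out each sample moved it between -2.03 and -1.76. The number of relatives past an adjusted p of 0.05 was 1, Trim46, with total counts alone, with no filter beyond 1 count and in DESeq2 with or without the prior, and 2, Trim9 and Trim67, in DESeq2 with the prior and the offset. It lay between 0 and 1 when a sample was left out, the 1 being Trim46 without Bahd1-KO replicate 1 (log2 fold change 2.0, adjusted p = 0.00545 by edgeR). Of the 89 genes of the 8 lists, 0 passed in the main test, 11 with total counts, 17 with no filter beyond 1 count, 20 in DESeq2 without the prior and 20 with it, 11 in DESeq2 with the prior and the offset, and 0 to 39 when a sample was left out, with 39 without Bahd1-KO replicate 1. Over all genes these fits called 0.00834% in the main test, 9.4% with total counts, 11% with no filter beyond 1 count, 17.2% in DESeq2 with or without the prior, 9.02% in DESeq2 with the prior and the offset, and 30% without Bahd1-KO replicate 1. The cause of these differences in counts was not tested.

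Trim67 turned from 0.01 to -0.13 with upper-quartile factors, -0.0006 with edgeR's own filter, -0.87 with the offset, -0.84 with the offset and block, -0.72 in DESeq2 with the prior and the offset, and -0.66 with the offset and without Bahd1-KO replicate 2, and lay between -0.17 and 0.33 when a sample was left out. Trim36 turned to 0.21 with the offset, 0.20 with the offset and block, 0.21 in DESeq2 with the prior and the offset and 0.18 with the offset and without Bahd1-KO replicate 2. The order of levels moved 2 members, Trim46 and Mid2, when Bahd1-KO replicate 2 was left out, and 0 to 2 over all samples left out, and 4 members with offset-corrected levels, an alternative chosen after seeing the data. Of the genes with a pattern like Mid1, 0 of 5 were shared after the offset. With the replicate block, in which same-numbered samples are different mice, 0 relatives and 0 list genes passed, and the block changed no call among these genes. The deviations of same-numbered samples from their group means had correlations of -0.629, -0.641 and -0.142, so the numbers were not taken to pair the mice. Depth leaves Mid1 with 31 counts in the shallowest library.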
